A study of Rattus norvegicus with 16 samples.

Results

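The Bcl2 family of apoptosis regulators was followed through 10 of its genes, Bcl2, Bcl2l1, Mcl1, Bax, Bak1, Bad, Bid, Bik, Bbc3 and Bcl2l11, in the stomach and the middle part of the intestine of suckling rats. The members were all probes of the array whose gene name was one of these symbols, without regard to their values, which gave 14 of the 30367 probes: 4 for Bcl2l1, 2 for Bax and 1 for each of the other 8 genes. All 14 were among the 21174 probes tested, those whose Cy5 signal stood well above background throughout 1 or more groups.

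The proteins of this family decide at the outer membrane of the mitochondrion whether a cell starts the intrinsic route of apoptosis. The anti-apoptotic members, such as Bcl2, bind and hold the pore-forming effectors Bax and Bak1, and the BH3-only members, among them Bid, Bik and Bad, either hold the anti-apoptotic members or act on the effectors. Many of these steps are set by cleavage, phosphorylation or protein stability, which an array does not measure. In the gut, cells are born in crypts and glands and shed at the surface, and apoptosis takes part in this renewal.

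The expression was measured on 16 two-colour Agilent arrays, 4 per group. The groups were the stomach and the middle intestine of C rats and the same 2 tissues of OH rats. C stands for saline solution and OH for obestatin, a peptide cut from the precursor of ghrelin. Wistar pups (Wistar Han in the methods) received either one enterally 2 times daily, obestatin at 250 nmol/kg BW per dose, starting on day 14 of life, and all were killed on day 21. Each array carried total RNA of 1 rat's tissue in Cy5 and a pool of RNA from all rats, the common reference, in Cy3, with no dye swap. The sources do not settle whether the stomach and the intestine arrays of a treatment group came from the same 4 rats. The tissues were whole pieces of organ, so a change in the share of a cell type and a change of RNA per cell cannot be told apart.

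Each group filled 1 slide, the 2 OH slides share a scan day and the 2 C slides share another, so treatment, slide and scan day cannot be told apart. By the methods each treatment also had its own litters, and the litters of the rats on the arrays are not given. The median raw Cy3 signal of the reference, the same pool by the methods, was 188 to 195 scanner units on the C arrays and 341 to 399 on the OH arrays, while that of Cy5 was 178 to 293 and 163 to 328. Of 12 marker genes of oxyntic glands and gastric surface cells, all 12 were higher in stomach than in middle intestine in both treatment groups. Of 13 enterocyte genes 11 were lower in stomach in both, as the tissue labels have it, while 1 was higher in C stomach. C stomach replicate 2 stood apart from its group in 11 genes of striated muscle, whose log2 ratios there averaged -0.98 and over 3 on the other arrays.

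The probes on which the results below turn are shown by their sequence on the array, Bid, Bax probe 2 and Bcl2l1 probe 3 whole and the others by their first 30 of 60 bases, because it is the probe and not the gene that was measured. Positions are those of the array design on rn4, which names no exon or untranslated region. Bid, Bak1, Bik, Bad and Bax probe 1 were called between the tissues in C and in OH, and the Bax probes had the largest differences between OH and C.
Bid (chr4:157297971-157298030, minus strand): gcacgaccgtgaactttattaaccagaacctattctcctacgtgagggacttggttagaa
Bak1 (chr20:5256042-5256101, minus strand): tggggggtgtttttctctgtcttgcacaac
Bik (chr7:121377009-121377068, minus strand): aggcacggaatctactggactagattcctt
Bad (chr1:209626000-209626059, plus strand): tcgctgtgtccctttaacagggagaagagc
Bax probe 1 (chr1:95932895-95932954, minus strand): aacggggaaaggcatttttcttacttttgt
Bax probe 2 (no position in the design): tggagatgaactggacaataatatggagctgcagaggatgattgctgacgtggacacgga

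The Bcl2l1 probes are shown because they gave different values and lie in different places of 1 gene. Capitals in probes 1 and 2 mark bases that both share, and in probe 3 the ATG at its start. Probes 1 and 2 share 52 of their 60 bases, so they are nearly 1 measurement, and on the minus strand of chromosome 3 they lie apart from probe 3 and from probe 4 (chr3:143176523-143176582).
Bcl2l1 probe 1 (chr3:143129088-143129147): AATAGTTTGTGTGAAGGTGAAAGTGCAGTT
Bcl2l1 probe 2 (chr3:143129096-143129153): ctttgaAATAGTTTGTGTGAAGGTGAAAGT
Bcl2l1 probe 3 (chr3:143178503-143178562): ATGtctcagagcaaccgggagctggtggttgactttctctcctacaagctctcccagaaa

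The value used was the log2 of the processed Cy5 over the processed Cy3 signal, so 0 means as bright as the reference. To take the channels apart, the log2 signal of each was set relative to the 75th percentile of its own array. Groups were compared in limma over all 21174 probes with Benjamini-Hochberg adjusted p-values and a threshold of 0.05, and each member was also given an exact permutation test, two-sided, whose smallest possible p with groups of 4 is 0.029. Group values are means ± SD with n = 4.

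**Figure D1:**
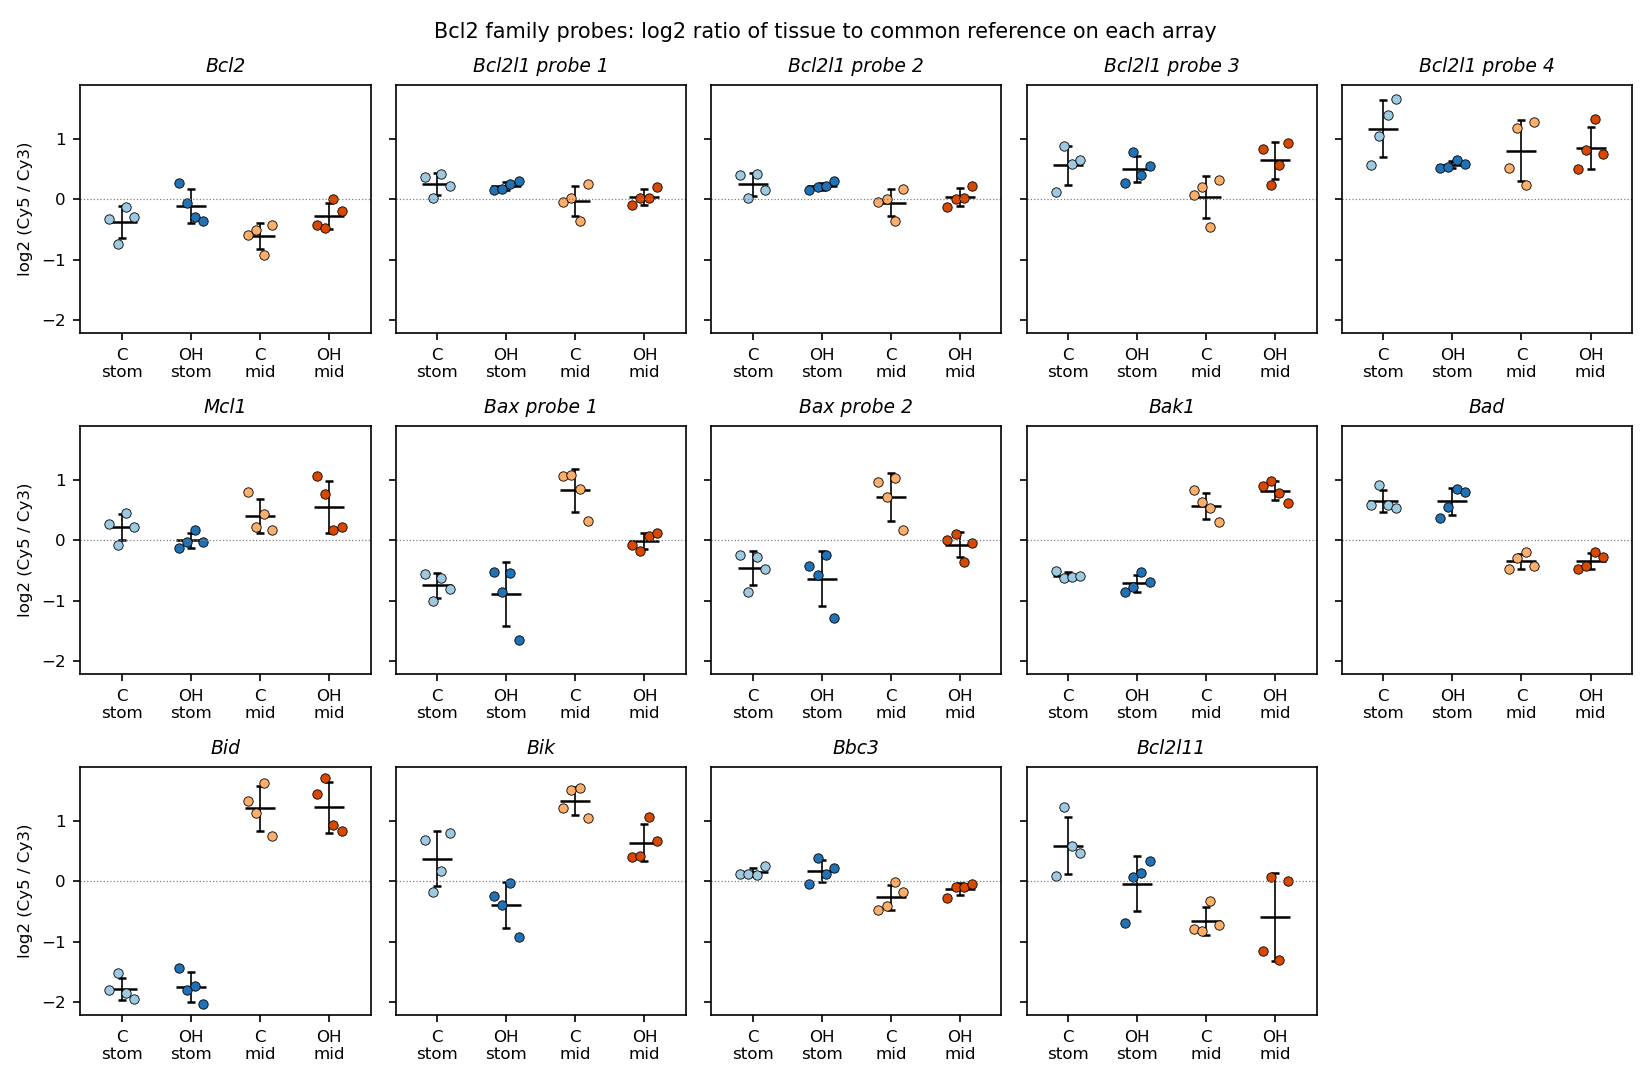
Log2 ratio of Cy5 (tissue) to Cy3 (common reference) of the 14 member probes, 1 panel a probe, with 1 point per array, C and OH of the stomach (stom) left and of the middle intestine (mid) right, and the mean and SD of 4 arrays as a bar. Bid runs from -2.03 to 1.72 over the arrays with a gap between the tissues, Bad runs the other way, and the Bax probes of C middle intestine lie above those of OH middle intestine.

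The first question of the design was whether obestatin changed these genes. Between OH and C, no member passed the adjusted threshold in either tissue. In stomach 0 of 14 probes were called, as were 0% of all probes, and in middle intestine 0 of 14, where 0.368% of all probes were called. The smallest adjusted p of a member in limma was 0.31 in stomach, for Bik, and 0.14 in middle intestine, for Bax. Without adjustment, 2 of 14 probes had a p under 0.05 in stomach, where 10.6% of all probes did, and 4 of 14 in middle intestine, where 10.5% did. In stomach the arrays of OH and C overlapped for all 14 probes, beside 7.6% of all probes whose arrays lay apart. The median difference of the 14 probes was -0.10 in stomach and 0.07 in middle intestine, beside 0.007 and 0.001 over all probes.

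**Figure D2:**
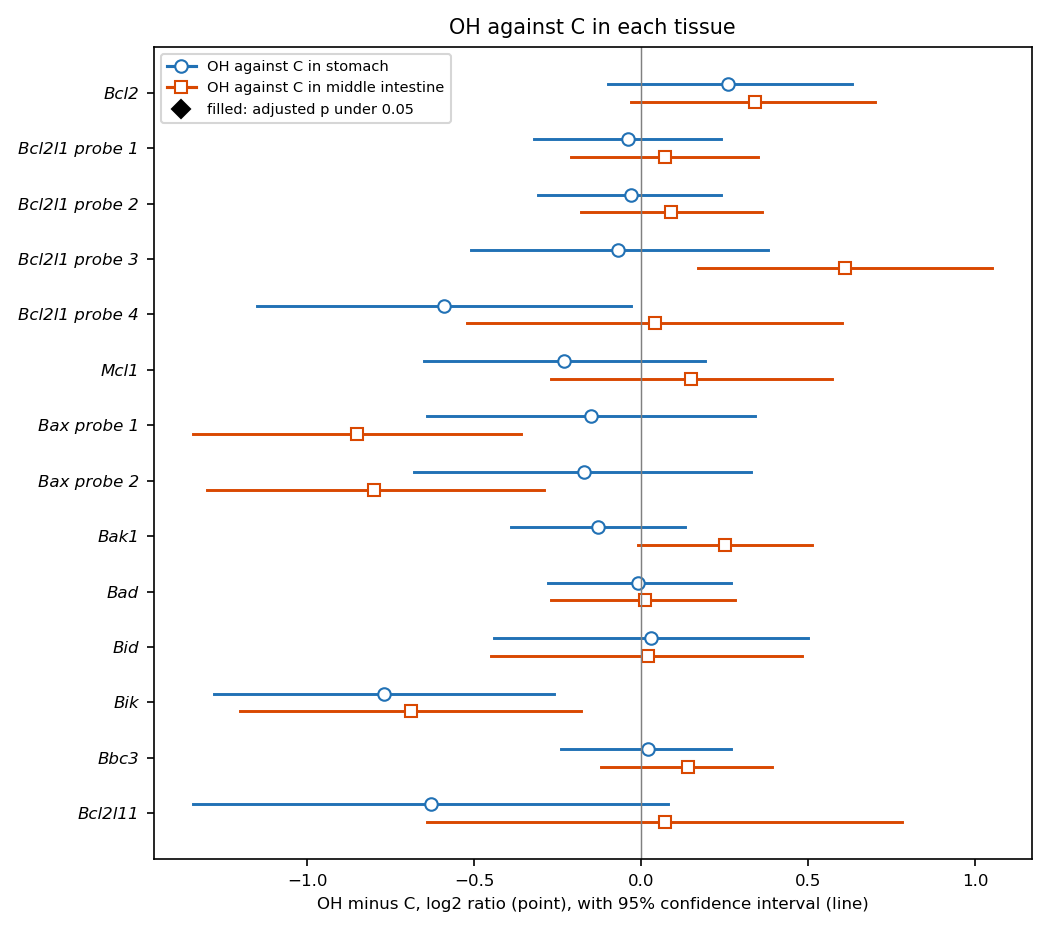
Difference of OH minus C in the log2 ratio (points) with its 95% confidence interval (lines) for each member probe, circles for stomach and squares for middle intestine. All points are open, since no adjusted p in limma was under 0.05. Both Bax probes (-0.85 and -0.80 in middle intestine) and Bik (-0.77 in stomach, -0.69 in middle intestine) lie farthest below 0.

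Bik, a BH3-only protein of the endoplasmic reticulum, was lower in OH in both tissues by values of like size, neither of them called. In C stomach its log2 ratio was 0.69, -0.17, 0.18 and 0.81 on the 4 arrays, and in OH stomach -0.25, -0.39, -0.02 and -0.92. Only C stomach replicate 2 reached into the OH range, and without it the groups would not have overlapped. The difference was -0.77 (standard error 0.24, 95% confidence interval -1.28 to -0.26, 1.71-fold lower in OH, limma p = 0.0058, adjusted p = 0.31, exact permutation p = 0.057).

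In C middle intestine Bik stood at 1.22, 1.51, 1.55 and 1.06, and in OH middle intestine at 0.41, 0.43, 1.07 and 0.67. The OH arrays lay lower except replicate 3, which just passed the lowest C array. The difference was -0.69 (standard error 0.24, 95% confidence interval -1.20 to -0.18, 1.61-fold lower, limma p = 0.012, adjusted p = 0.27, exact permutation p = 0.057). Of Bik's difference, the larger share lay in Cy5, which was -0.58 in stomach and -0.46 in middle intestine, while the Cy3 signal of the reference was 0.18 and 0.24 higher on the OH arrays.

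As the mean of both tissues, Bik was -0.73 (standard error 0.17, 1.66-fold lower in OH), just over the threshold in limma (adjusted p = 0.061). It passed without C stomach replicate 2 (-0.82, adjusted p = 0.02), which was low in striated muscle genes, and without OH stomach replicate 3 (-0.79, adjusted p = 0.047). Without any 1 of the other 14 arrays it did not pass (adjusted p up to 0.14), nor did it in Cy5 alone (-0.52, adjusted p = 0.082 in limma on Cy5). The part of muscle in the value of Bik was not tested. Of the 14 probes 0 were called for this mean, beside 0.685% of all probes (145 probes, from 36 without C stomach replicate 1 to 481 without C stomach replicate 2), and 4 passed without adjustment (3 genes, Bik, Bax and Bcl2), beside 14.5%. In Cy5 alone 1 probe was called, Bcl2l1 probe 3, beside 7.4% of all probes.

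Bax, which forms pores in the outer mitochondrial membrane, had the lowest ratios in OH middle intestine relative to C. For probe 1 the log2 ratio was 1.07, 1.08, 0.86 and 0.32 in C middle intestine and -0.08, -0.17, 0.07 and 0.13 in OH middle intestine. For probe 2, which has another sequence, it was 0.97, 0.72, 1.04 and 0.17 in C and 0.01, 0.11, -0.36 and -0.04 in OH. In both probes each OH array read lower than each C array, and the groups overlapped for all other member probes. These 2 of the 14 probes belong to 1 gene. Of all probes, 2.13% lay apart with OH lower, and the share apart in either direction is not given here. C middle intestine replicate 4 was the lowest C array of both.

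The difference was -0.85 for probe 1 (standard error 0.23, 1.8-fold lower, limma p = 0.0023, adjusted p = 0.14, exact permutation p = 0.029) and -0.80 for probe 2 (standard error 0.23, 1.74-fold lower, limma p = 0.0042, adjusted p = 0.18, exact permutation p = 0.029). Over the 16 arrays the deviations of the 2 probes from their group means correlated with a Pearson's r of 0.83, given as a description, since both probes were read on the same arrays.

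Taken apart, the channels showed this difference of Bax in Cy3 and not in Cy5. In Cy3, probe 1 read 0.78, 0.68, 0.77 and 0.76 above the 75th percentile on the C middle intestine arrays and 1.93, 1.85, 1.78 and 1.79 on the OH middle intestine arrays. Probe 2 in Cy3 read -1.67, -1.60, -1.69 and -1.60 in C and -0.57, -0.60, -0.57 and -0.54 in OH. The reference was thus brighter for Bax on the OH than on the C middle intestine slide, by 1.09 (adjusted p = 1.0e-06 in limma on Cy3) and 1.07 (adjusted p = 2.6e-10), and 1.94% of all probes had a Cy3 difference over 1 in size. On the C and OH stomach slides the Cy3 mean was 1.47 and 1.35 for probe 1 and -0.82 and -0.75 for probe 2. The C middle intestine slide, with means of 0.75 and -1.64, was thus the lowest for both probes.

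In Cy5, which held the rats' own RNA, the Bax signal did not read lower in OH middle intestine. Probe 1 in Cy5 read 1.84, 1.73, 1.61 and 1.09 in C and 1.82, 1.64, 1.81 and 1.91 in OH, a difference of 0.23 (standard error 0.28, adjusted p = 0.85 in limma on Cy5). Probe 2 in Cy5 differed by 0.26 (standard error 0.25, adjusted p = 0.77). The lower ratio of Bax in OH middle intestine thus came with a brighter Cy3 signal and a Cy5 signal that was not lower. Each channel was compared between 1 slide and another, so effects of slide, scan day and treatment on it cannot be told apart. Why the reference differed was not tested.

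In stomach the Bax ratios overlapped, and probe 1 had a mean ratio of -0.74 ± 0.20 in the C group and -0.89 ± 0.53 in the OH group (SD, n = 4). The difference was -0.15 for probe 1 (95% confidence interval -0.64 to 0.34, adjusted p = 0.85 in limma) and -0.17 for probe 2 (-0.68 to 0.33, adjusted p = 0.83). OH stomach replicate 4, at -1.65 for probe 1 and -1.29 for probe 2, lay under every other stomach array in both, and without it the differences were 0.10 and 0.04.

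**Figure D3:**
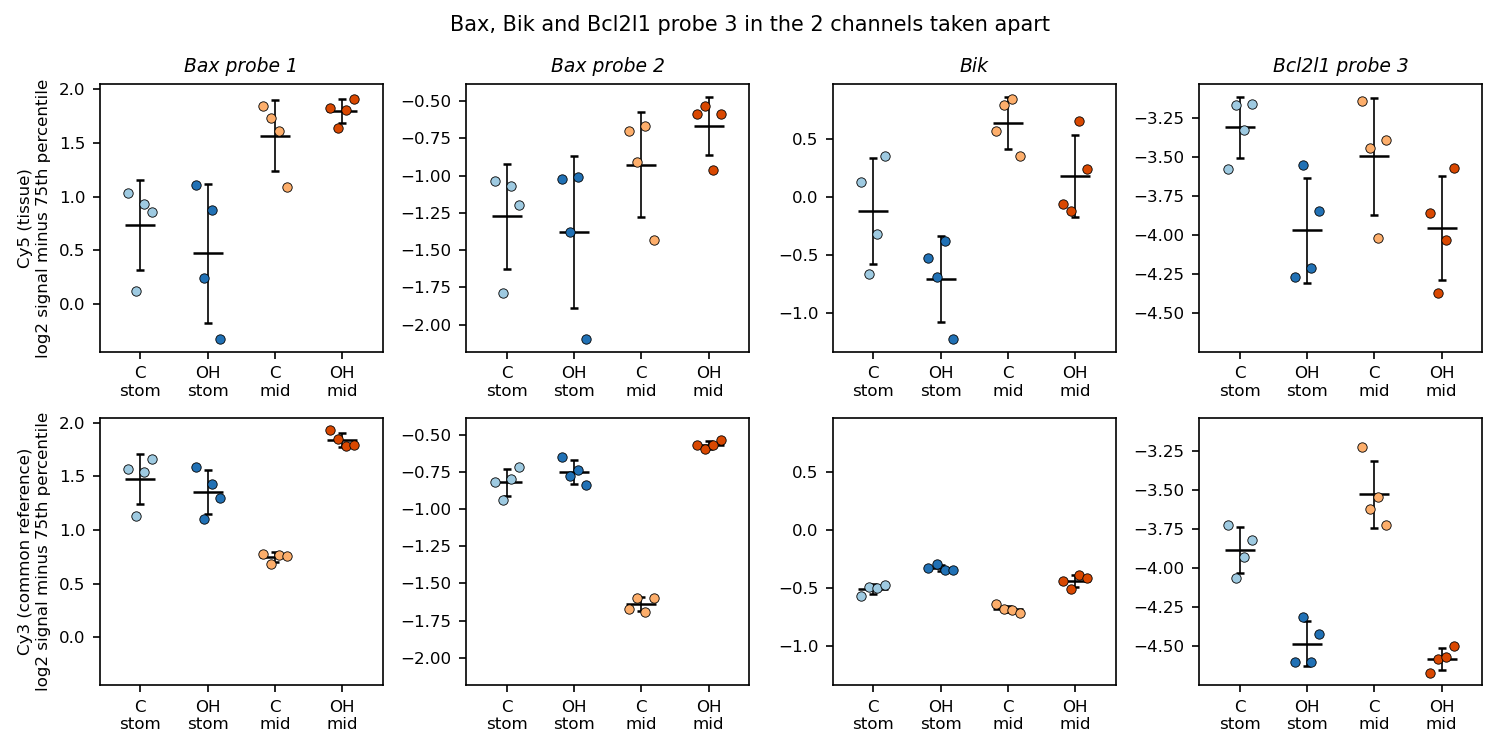
Log2 signal minus the 75th percentile of the array for Bax probe 1, Bax probe 2, Bik and Bcl2l1 probe 3, with Cy5 (tissue) above and Cy3 (common reference) below, 1 point per array and the mean and SD of 4 arrays as a bar (stom for stomach, mid for middle intestine). For both Bax probes the Cy5 points of C and OH middle intestine overlap while their Cy3 points lie about 1 apart, and for Bik the Cy3 points differ by 0.18 and 0.24.

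Bak1, the other effector, overlapped between OH and C in both tissues. Its ratio was -0.58 ± 0.05 in C stomach and -0.71 ± 0.14 in OH stomach, and in the middle intestine 0.57 ± 0.22 for C and 0.82 ± 0.16 for OH (SD, n = 4). The difference was -0.13 in stomach (95% confidence interval -0.39 to 0.13) and 0.25 in middle intestine (-0.01 to 0.51, adjusted p = 0.50 in limma).

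Among the anti-apoptotic members, Bcl2, which gives the family its name, had a ratio of -0.33, -0.74, -0.13 and -0.29 in C stomach and 0.27, -0.06, -0.29 and -0.36 in OH stomach. In middle intestine it was -0.59, -0.50, -0.92 and -0.43 in C and -0.42, -0.47, -0.00 and -0.19 in OH. The groups overlapped in both tissues, and the difference was 0.26 in stomach (standard error 0.17, adjusted p = 0.61 in limma) and 0.34 in middle intestine (standard error 0.17, adjusted p = 0.54). In Cy5 the difference of Bcl2 had the other sign, -0.25 and -0.08, and the Cy3 reference was lower on the OH arrays by -0.52 and -0.40.

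Mcl1, a short-lived anti-apoptotic protein, differed by -0.23 in stomach (95% confidence interval -0.65 to 0.19) and by 0.15 in middle intestine (-0.27 to 0.57), with overlapping arrays. In OH middle intestine its arrays were spread widely, at 1.07, 0.77, 0.18 and 0.23.

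Bcl2l1, known for the anti-apoptotic protein Bcl-xL, gave 3 different answers by probe. Probes 1 and 2 differed between OH and C by -0.04 and -0.03 in stomach and by 0.07 and 0.09 in middle intestine, with no 95% confidence limit past 0.36 in size. Probe 3, at the ATG, read 0.08, 0.21, -0.46 and 0.33 in C middle intestine and 0.84, 0.24, 0.57 and 0.94 in OH. The arrays of probe 3 overlapped, and the difference was 0.61 (standard error 0.21, adjusted p = 0.26 in limma).

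For this probe too the channels disagreed with the ratio. Its Cy5 signal in middle intestine was -0.46 lower in OH (adjusted p = 0.37 in limma on Cy5) and its Cy3 signal -1.06 lower (adjusted p = 8.3e-07 in limma on Cy3), so the higher ratio came with a lower reference. In Cy5 alone, the mean of both tissues was -0.56 (adjusted p = 0.039 in limma on Cy5), against 0.27 (adjusted p = 0.42) for the ratio. Probe 4, the dimmest, was not well above background on 1 array each of C and OH middle intestine and differed by -0.59 in stomach (standard error 0.26, adjusted p = 0.45 in limma), with Cy5 at 0.12 and Cy3 at 0.71. The deviations of probe 1 from its group means had a Pearson's r of 0.98 with those of probe 2, 0.24 with those of probe 3 and 0.44 with those of probe 4 over the 16 arrays, given as a description of probes read on the same arrays.

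Of the BH3-only members other than Bik, Bad, Bid and Bbc3 lay near 0 between OH and C. Bad, which binds Bcl2 and Bcl-xL when it is not phosphorylated, differed by -0.01 in stomach (95% confidence interval -0.28 to 0.27) and 0.01 in middle intestine (-0.27 to 0.28). Bid, the link from the death receptors to the mitochondrion, differed by 0.03 (-0.44 to 0.50) and 0.02 (-0.45 to 0.48). Bbc3, the p53 target also called Puma, differed by 0.02 (-0.24 to 0.27) and 0.14 (-0.12 to 0.39). These intervals leave room for changes of up to about 0.5 on the log2 scale in Bid and of less in the other 2.

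Bcl2l11, also called Bim, was too dim to follow in the intestine. Its Cy5 signal cleared the background on all 4 C stomach arrays, on 2 in OH stomach and on 0 in either middle intestine group. In stomach its ratio was 0.09, 1.23, 0.58 and 0.48 in C and -0.69, 0.07, 0.14 and 0.34 in OH. The arrays overlapped, and the difference was -0.63 (standard error 0.33, adjusted p = 0.52 in limma).

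The difference of the response to OH between the tissues was tested as an interaction. Of the 14 probes 0 were called, as were 0% of all probes, and 3 had an unadjusted p under 0.05, beside 5.85% of all probes. These were Bax probe 1 (0.70, standard error 0.33), Bcl2l1 probe 3 (-0.68, standard error 0.29) and Bak1 (-0.38, standard error 0.17), each at an adjusted p of 0.84 by limma. In Cy5 alone the value for Bax probe 1 had the other sign, -0.49. For Bik the interaction was -0.08 (95% confidence interval -0.80 to 0.64), which does not show that the tissues responded alike.

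The share of members whose Cy3 reference differed between the OH and the C slides was near that of all probes. In Cy3 alone 6 of 14 member probes were called in stomach, beside 43.8% of all probes, and 8 of 14 in middle intestine, beside 60.7%. The Cy3 difference was larger in size than the Cy5 difference for 6 of 14 probes in stomach and for 8 in middle intestine. In Cy5 alone 0 of 14 were called in each tissue, beside 0.109% and 2.8% of all probes, with 3 and 0 of 14 past an unadjusted p of 0.05, beside 14.9% and 14% of all probes.

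The second question was how the family differed between the tissues, each treatment group compared within its own scan day but still 1 slide against 1 slide. In C rats 7 of the 10 genes differed between stomach and middle intestine. Bid, Bax, Bak1 and Bik were lower in stomach, and Bcl2l11, Bad and Bbc3 were higher. Bcl2l11 was kept only through C stomach, the group where it read higher, so the filter favoured its call. Of the 14 probes 8 were called, 57.1%, beside 44.9% of all probes, 3 higher (beside 22.7%) and 5 lower (beside 22.3%). The median of the 14 probes was 0.26 in C, beside -0.007 over all probes, and -0.21 in OH, beside 0.009. In OH rats 6 genes were called in 6 of 14 probes, 42.9%, beside 38.2% of all probes, 1 higher (beside 19.2%) and 5 lower (beside 19.1%).

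**Figure D4:**
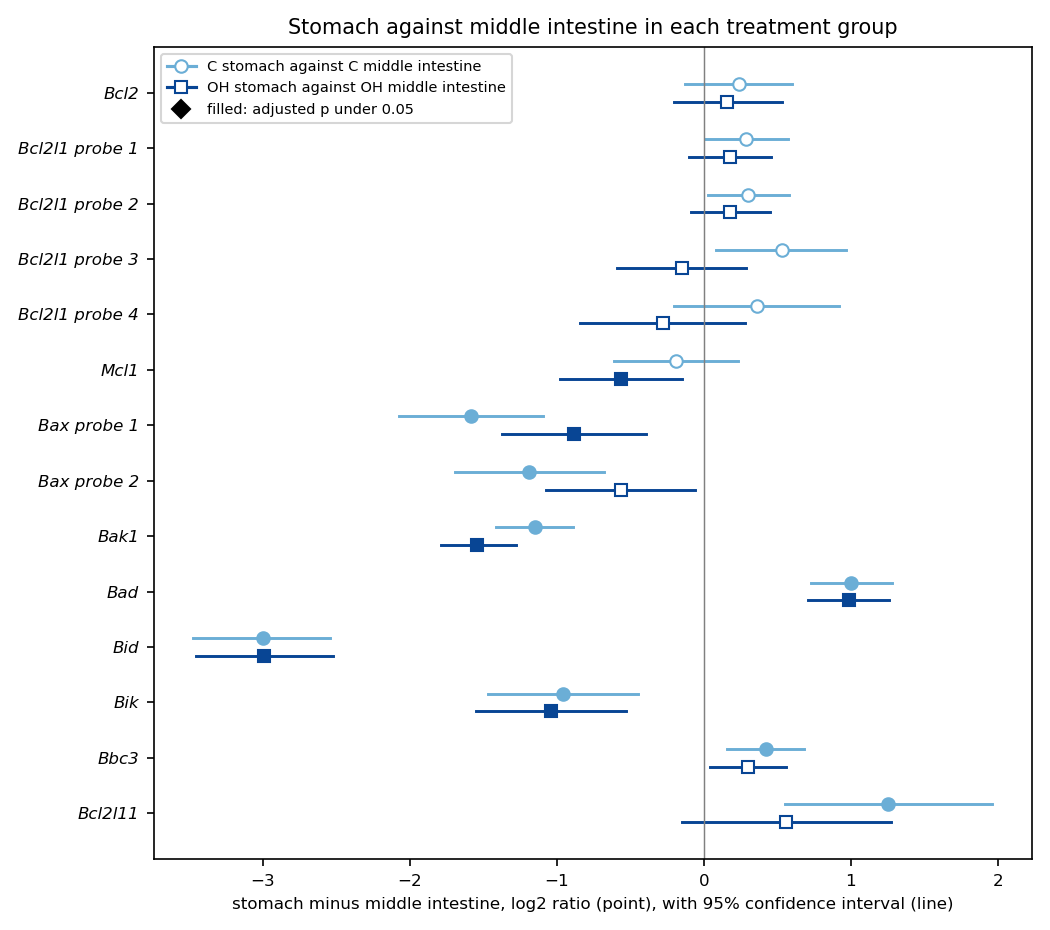
Difference of stomach minus middle intestine in the log2 ratio (points) with its 95% confidence interval (lines) for each member probe, circles for C and squares for OH, filled where the adjusted p in limma was under 0.05. Bid lies at about -3 in both, Bak1, Bik and Bax lie below 0 and Bad above 0, and the Bcl2 and Bcl2l1 probes are open.

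Bid had the largest difference of the members. Its log2 ratio was -1.81, -1.52, -1.85 and -1.95 in C stomach and 1.34, 1.14, 1.64 and 0.75 in C middle intestine. In OH it was -1.44, -1.81, -1.74 and -2.03 in stomach and 1.45, 1.72, 0.93 and 0.83 in middle intestine. No stomach array came near an intestine array, with a gap over 2 on the log2 scale between the highest of the one and the lowest of the other.

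The difference of Bid was -3.00 in C (standard error 0.22, 8.02-fold lower in stomach, adjusted p = 6.7e-08 in limma) and -2.99 in OH (standard error 0.22, 7.92-fold lower, adjusted p = 7.4e-08). It lay in Cy5, which differed by -3.27 and -3.18, while Cy3 differed by -0.29 and -0.23. In stomach Bid was dim, and not well above background on 1 C stomach array. With normexp background correction (offset 50) and loess it was -1.18 in C (adjusted p = 1.9e-05 in limma) and -1.56 in OH, also called, so the direction held and the size did not. Of all kept probes with another gene's name, those whose ratio followed Bid most closely over the 16 arrays were Muc3 and Npc1l1, each with a Pearson's r of 0.994, and Slc51b with 0.993. Muc3 is a membrane mucin, Npc1l1 takes up cholesterol at the brush border and Slc51b is a subunit of a bile acid exporter. They were lower in C stomach by -4.82, -5.07 and -3.56. Since they were picked for the highest r over arrays of both tissues, that r reflects the gap between the tissues. Whether these genes follow Bid within a group was not tested.

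Both effectors were lower in stomach. Bak1 was -0.51, -0.63, -0.60 and -0.59 in C stomach and 0.83, 0.63, 0.53 and 0.31 in C middle intestine, and in OH it was -0.86, -0.77, -0.53 and -0.69 against 0.91, 0.98, 0.78 and 0.62. The tissues did not overlap in either group. The difference of Bak1 was -1.15 in C (standard error 0.12, 2.22-fold lower, adjusted p = 3.1e-06 in limma) and -1.54 in OH (standard error 0.12, 2.9-fold lower, adjusted p = 1.7e-07), and Cy5 alone gave -1.32 and -1.55.

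Bax was lower in stomach by -1.58 in C (standard error 0.23, adjusted p = 7.2e-05 in limma) and -0.88 in OH (standard error 0.23, adjusted p = 0.0073) with probe 1. Probe 2 gave -1.19 in C (standard error 0.23, adjusted p = 9.3e-04) and -0.56 in OH (standard error 0.23, adjusted p = 0.072). In C, part of this again lay in Cy3, which was 0.72 and 0.82 higher on the stomach slide than on the C middle intestine slide, the same low slide as above. Cy5 alone gave -0.83 (adjusted p = 0.027) for probe 1 and -0.35 (adjusted p = 0.28) for probe 2, so the call of probe 2 in C was lost. In OH, Cy5 alone gave -1.32 (adjusted p = 0.0018) and -0.71 (adjusted p = 0.035), so in the tissue channel both probes were called in OH and 1 in C.

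Bik stood at -0.96 in C (standard error 0.24, 1.94-fold lower in stomach, adjusted p = 0.0048 in limma) and at -1.04 in OH (standard error 0.24, 2.06-fold lower, adjusted p = 0.0032). The arrays given above show no overlap between the tissues within either treatment group, and Cy5 alone gave -0.76 and -0.89.

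Bad went the other way. It read 0.58, 0.92, 0.58 and 0.53 in C stomach against -0.47, -0.30, -0.20 and -0.42 in C middle intestine, and 0.38, 0.55, 0.85 and 0.81 in OH stomach against -0.48, -0.43, -0.19 and -0.27 in OH middle intestine. The tissues did not overlap. Bad was higher in stomach by 1.00 in C (standard error 0.13, 2-fold, adjusted p = 2.3e-05 in limma) and by 0.99 in OH (standard error 0.13, 1.98-fold, adjusted p = 2.8e-05), and in Cy5 alone by 1.05 and 1.17.

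Bbc3 was higher in C stomach by 0.42 (standard error 0.12, 1.34-fold, adjusted p = 0.011 in limma), with 0.13, 0.13, 0.11 and 0.26 against -0.47, -0.41, -0.01 and -0.17 and no overlap. In OH its difference was 0.30 (standard error 0.12, adjusted p = 0.062). Bcl2l11 was higher in C stomach than in C middle intestine, where it was not well above background on any array, so no fold is given (measured difference 1.25, adjusted p = 0.0069 in limma). In Cy5 alone it was 1.09, and with normexp background correction 0.18 (adjusted p = 0.058), so the size and the call of Bcl2l11 depended on the background correction. In OH, with 2 of 4 stomach arrays well above background, the measured 0.56 was not called (adjusted p = 0.20).

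No anti-apoptotic member was called between the tissues in C, and 1 was in OH. Bcl2 was 0.24 in C (95% confidence interval -0.13 to 0.60) and 0.16 in OH (-0.20 to 0.53), with overlapping arrays. The 4 probes of Bcl2l1 lay between 0.29 and 0.53 in C, with adjusted p-values in limma from 0.05 (rounded, above the threshold, for probe 3) to 0.28, and between -0.28 and 0.18 in OH. In C, probes of Bcl2l1 and Bcl2 passed under some other settings. Bcl2l1 probe 1 did so without C stomach replicate 2 (0.37, adjusted p = 0.038) or without C middle intestine replicate 4 (0.38, adjusted p = 0.028), and probe 2 without either of these arrays (0.38, adjusted p = 0.032 and 0.03) and with normexp (0.32, adjusted p = 0.049). Probe 3 passed under 5 settings, with 0.67 (adjusted p = 0.02) without C stomach replicate 1, and Bcl2 with scaled ratios (0.41, adjusted p = 0.047).

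Mcl1 was the anti-apoptotic member called in OH. In OH it read -0.12, -0.03, 0.17 and -0.02 in stomach and 1.07, 0.77, 0.18 and 0.23 in middle intestine, just apart at 0.17 and 0.18. The difference was -0.56 (standard error 0.20, 1.48-fold lower in stomach, adjusted p = 0.034 in limma), and -0.19 (adjusted p = 0.46) in C. The call was lost in Cy5 alone (-0.48, adjusted p = 0.074) and without any 1 of OH stomach replicates 1, 2 and 4 and OH middle intestine replicates 1 and 2, where the adjusted p was 0.067 to 0.11. It was also lost with only the OH arrays in the fit (adjusted p = 0.071) and with Tukey's HSD, which the methods name (adjusted p = 0.13). The change of this difference between C and OH was that of the interaction above, -0.38 (adjusted p = 0.89).

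The arrays lay apart between the tissues for 8 of 14 probes in C, 3 higher in stomach (beside 21.6% of all probes) and 5 lower (beside 22.1%), and for 7 of 14 in OH, 2 higher (beside 17.6%) and 5 lower (beside 17.7%). Those higher in C included Bcl2l11, which was kept only through C stomach. Ratio and Cy5 had the same sign for 13 of 14 probes in each. With Cy5 alone 7 of 14 probes were called in C, beside 43% of all probes, and 7 in OH, beside 39%.

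Other genes of apoptosis were read from 5 lists, set beside the 22.7% of all probes that were higher and the 22.3% that were lower in C stomach. Of 11 other genes of the Bcl2 family that were kept of 14 listed, 4 were higher and 3 lower in C stomach than in C middle intestine. Bcl2l15 was lower by -3.71 (standard error 0.35, adjusted p = 9.7e-07 in limma), Bcl2a1, an anti-apoptotic gene of blood cells that was well above background on 1 of 4 arrays in each C tissue, by -1.28 and Bcl2l12 by -0.54. Bcl2a1 was kept only through OH middle intestine, so the filter favoured its calls as lower in stomach. Higher were Bnip3 and Bnip3l, which serve the removal of mitochondria, by 1.18 and 0.86, the BH3-only gene Bmf by 0.87 and the anti-apoptotic Bcl2l2 by 0.57. In OH rats 7 of these genes passed, all 7 shared with C and in the same directions, with Bcl2l15 at -3.64 and Bnip3 at 1.33. The median of the 11 genes was 0.36 in C and 0.25 in OH, beside -0.007 and 0.009 over all probes.

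Downstream of the mitochondrion, 3 of the 14 genes read were lower in C stomach and 0 higher, with a median of 0.08. They were Apaf1, the scaffold of the apoptosome, at -0.84, the protease Htra2 at -0.59 and the nuclease Dffb at -0.40. In OH rats 2 of 14 were lower, Apaf1 at -1.10 and Htra2 at -0.44, with a median of 0.13.

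Of 6 kept of 7 listed inhibitors of apoptosis proteins, 5 were lower in stomach in C and in OH, with medians of -0.78 and -1.02. In C they were Naip6 (above background on 3 of 4 C stomach and 0 of 4 OH stomach arrays) at -2.89, Birc3 at -1.71, Xiap, which binds caspases, at -0.79, Birc5, also a mitosis gene, at -0.78 and Birc2 at -0.42. Naip6 was kept only through the intestine groups, where it read higher.

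Of 9 kept of 10 listed genes of the death receptor pathway, the route that reaches Bid through Casp8, 4 were lower in C stomach (median -0.45), Faslg at -3.26, Tnfrsf10b at -2.43, Fas at -1.30 and Tradd at -0.88. Faslg was not well above background on any stomach array, and Tnfrsf10b on 0 of 4 in C stomach and 1 of 4 in OH stomach, so the size of their differences is not measured. Both were kept only through OH middle intestine, so the filter favoured their calls as lower in stomach. In OH 6 were lower (median -0.78), these 4 together with Fadd at -0.78 and Casp8 at -0.76. Of 10 kept of 12 listed partners of the members, 3 were higher and 1 lower in each treatment group, among them Bag1 at 0.48 and Ywhah, a 14-3-3 protein, at -0.61 in C.

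Between OH and C, 0 genes of these 5 lists passed in either tissue. As the mean of both tissues 1 did, Apaf1, at 0.51 (standard error 0.11, adjusted p = 0.05 in limma after rounding, under the threshold), with a Cy5 difference of -0.00.

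**Figure D5:**
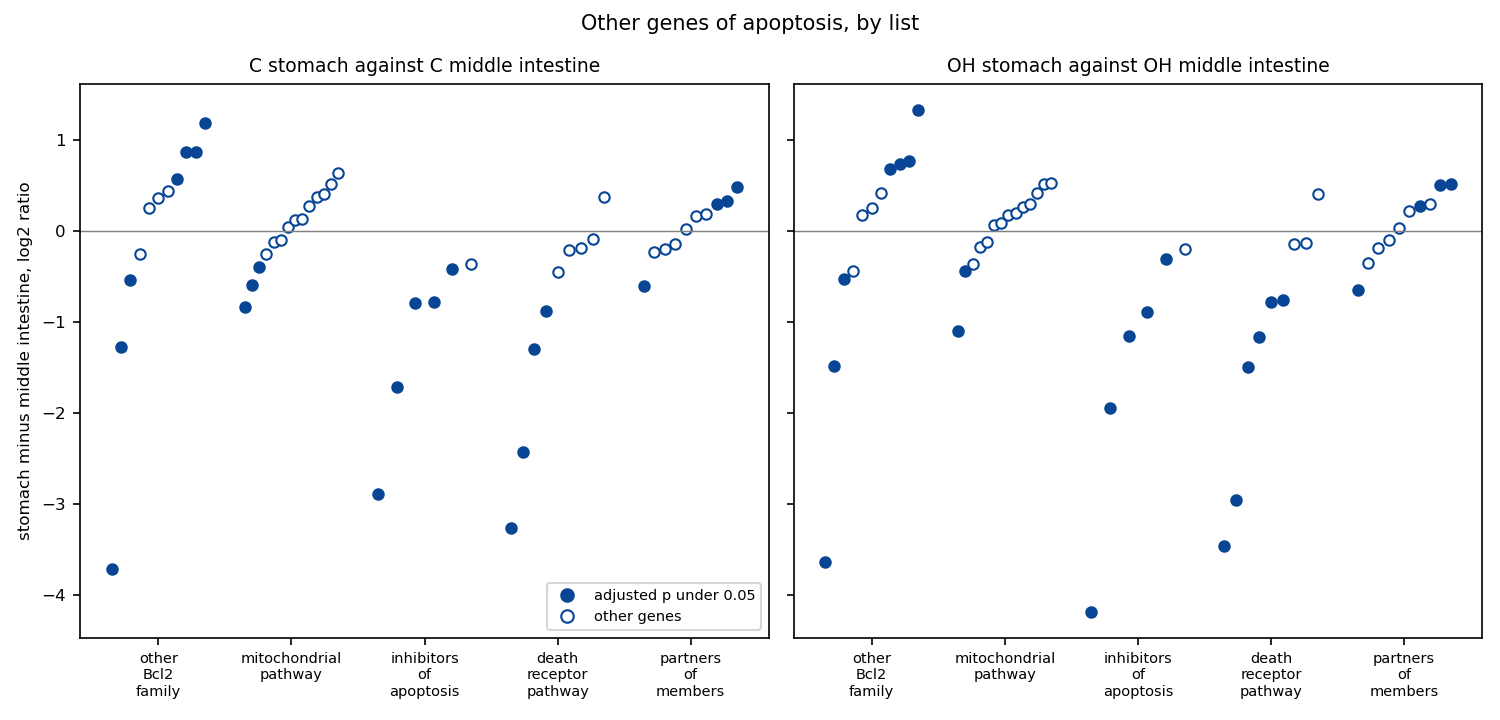
Difference of stomach minus middle intestine in the log2 ratio for the kept genes of 5 lists of the apoptosis pathway, 1 probe a gene, in C (left) and OH (right), filled where the adjusted p in limma was under 0.05. The filled points of the inhibitors of apoptosis, the death receptor pathway and the mitochondrial pathway all lie below 0, while those of the other Bcl2 family and of the partners lie on both sides.

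Markers of other cell types moved with the tissue differences. Of 9 kept leukocyte genes of 14 listed, 6 were lower in C stomach than in C middle intestine and 6 in OH, and their summed processed Cy5 signal lay between 1159 and 1358 in C stomach, 1235 to 1555 in OH stomach, 11933 to 14896 in C and 9916 to 17667 in OH middle intestine. Of the listed leukocyte genes 5 were not well above background on any array of either stomach group and 1 on any of either intestine group. All 8 proliferation genes were lower in stomach in both, with summed signals of 14998 to 17298 in C stomach and 19824 to 22151 in OH stomach against 25573 to 40316 and 29442 to 46840. The 13 enterocyte genes summed to 58806 to 95367 in C stomach and 253693 to 423533 in C middle intestine. The part of these cell types in the values of Bid, Bax, Bak1, Bik and the pathway genes was not tested.

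Some muscle and forestomach markers differed between OH and C in stomach, but only without adjustment. Of all probes, 10.6% had an unadjusted limma p under 0.05 in this comparison. The summed signals of both muscle lists overlapped between the groups. The 11 striated muscle genes summed to 121419, 1921, 70157 and 185519 in C stomach and to 17523, 3465, 2604 and 11346 in OH stomach, and 7 of 11 had an unadjusted p under 0.05. The 8 smooth muscle genes summed to 53056 to 110533 in C stomach and 51699 to 483686 in OH stomach, with 4 of 8 under 0.05 unadjusted. Of 7 kept forestomach genes 4 were under 0.05 unadjusted, with a median difference of -0.64, as were 4 of 12 oxyntic and surface genes, with a median of -0.09. No gene of these lists passed the adjusted threshold of limma there, and their part in the stomach values of Bik and Bcl2l11 was not tested.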

How the data were processed

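Per the file headers, the deposited scanner files came from version 10.10.1.1 of Agilent Feature Extraction (10.7.3.1 in the methods and the submitters' processing notes) and hold processed intensity values of both channels after background subtraction and Lowess normalization. A second deposited table, of log10 ratios, was equal to the scanner log10 ratios for 15 arrays and within rounding for 1. The log2 ratio of the deposited processed intensities was taken per spot, control and outlier spots were left out and spots of a probe averaged. Of 30367 probes, 9193 were left out as too dim in Cy5 (no group with its 4 arrays all well above background) or for having under 3 values in some group.

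The ratios were fitted with 1 mean per group over 16 arrays with lmFit and eBayes of limma (version 3.58.1, R 4.3.3), with Benjamini-Hochberg adjustment and a threshold of 0.05. Groups were taken from the labels. Fits were tested on simulated data. Gene names, coordinates and probe sequences are those of the array design (rn4). By accession, 13 of the 14 probes were found in a RefSeq gene table, all under the same symbol. The list genes were read through the probe brightest in Cy5. All members, the largest changes of each list, up to 4 in each direction, and the 3 genes most like Bid were named. The number of arrays limits the precision. The members and lists were chosen with earlier results of these data known. Alternatives covered the background correction, scaling, centring, Cy5 alone, the log10 table, filters, outlier spots, arrays in the fit, a replicate block, moderation, the methods' ANOVA with Tukey's HSD, no adjustment, and leaving out each array. Part of the mitochondrial pathway list is not reported here. The PCR and protein assays of the study were not analysed here.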

Additional observations from a re-analysis of the deposited data

Results flagged for a closer look

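Of 56 sets of 4 arrays, 2 held a log2 ratio far from the other 3 by Dixon's test (gap to the next array divided by the whole range, at the 95% critical value), where chance gives about 1 in 20, or 2.8. Bad was highest on C stomach replicate 2, at 0.92 against 0.53 to 0.58 on the others, a gap of 0.872 of the range. Bbc3 was highest on C stomach replicate 4, at 0.26 against 0.11 to 0.13, with 0.867. Without C stomach replicate 2 and without C stomach replicate 4, Bad and Bbc3 kept their calls between the tissues in C.

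The common reference in Cy3, the same pool by the methods, differed between the OH and the C slides for 6 of the 14 member probes in stomach and for 8 in middle intestine at an adjusted p under 0.05 in limma. Of all probes 43.8% and 60.7% did so, so the members were not set apart in this. The cause was not tested.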

How the results depend on the processing

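Of 2362 values of single probes under other settings, 2293 kept their side of the threshold, 10 lost it, 44 passed it and 15 reversed. All 15 were in Cy5 alone, which is not divided by the reference, though the processed Cy5 signal was Lowess-normalized beforehand. Among the others, 111 changed sign where the reported value lay within 1 standard error of 0. In Cy5 alone the OH minus C value in stomach was -0.25 for Bcl2 and 0.12 for Bcl2l1 probe 4. In middle intestine it was -0.08 for Bcl2, -0.46 for Bcl2l1 probe 3, 0.23 and 0.26 for Bax probes 1 and 2 and -0.01 for Bak1. The difference between the tissues in the response was 0.50 for Bcl2l1 probe 4, -0.49 for Bax probe 1 and -0.36 for Bax probe 2. The mean of both tissues was -0.17 for Bcl2, -0.56 for Bcl2l1 probe 3 and 0.08 for Bax probe 2. Between stomach and middle intestine Bcl2l1 probe 4 was -0.43 in C and 0.07 in OH. The cause was not tested. Of 14 probes, the mean of both tissues called 0, but 1 with scaled ratios (Bik, -0.87, adjusted p = 0.029 in limma), 1 with no filter on dim probes (Bik, adjusted p = 0.018), 1 in Cy5 alone, and 0 to 1 without single arrays (1 without C stomach replicate 2 or OH stomach replicate 3). Without adjustment OH and C differed at 2 probes in stomach, 4 in middle intestine, 3 in the difference of the tissues and 4 in their mean. ANOVA with Tukey's HSD gave 1 in stomach (Bik) and 2 in middle intestine (both Bax probes). The share of all probes passing that test is not given here, so these counts stand without a rate beside them. Between the tissues the count was 7 to 11 in C and 5 to 8 in OH over all settings, and without 1 array 8 to 11 and 5 to 7.

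The number of all probes called between OH and C moved by over 1.5 times. In stomach it was 0, and 311 without C stomach replicate 2. In middle intestine it was 78, with 1 in a fit of that tissue's arrays alone, 40 with a replicate block and 12 to 88 without single arrays. For the mean of both tissues it was 145, with 92 under a replicate block, 1567 in Cy5 alone and 36 to 481 without single arrays. Same-numbered samples of OH and C are different rats and were not treated as pairs, and their deviations correlated from -0.40 to 0.51. In no comparison were over 3 of 4 same-numbered pairs above 0.1. Whether the tissues of a treatment group came from the same rats is not given, and no pairing was assumed. Between C stomach and C middle intestine the correlation was 0.06 to 0.25, 3 of 4 samples matching their own number best, against -0.16 to 0.08 for other numbers. In OH it was -0.12 to 0.32, with 2 of 4, against -0.34 to 0.30. If the rats were the same, the tests between the tissues and of their mean took 2 tissues of 1 rat as independent. With a replicate block the members gave 0 calls between OH and C in each tissue, 8 between the tissues in C and 7 in OH, the added one being Bax probe 2 (adjusted p = 0.05 after rounding). Dim signal limits Bcl2l11, Bcl2l1 probe 4 and Bid in stomach.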
